A study of Mus musculus with 4 samples.

Results

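Genes of the interleukin 1 (IL-1) and interleukin 33 (IL-33) receptor system, 7 of the 41288 genes in the deposited table, were followed in the mouse pre-osteoblastic line MC3T3-E1: Il1rl1, Il33, Il1r1, Il1rap, Il1rn, Sigirr and Myd88. Il1rl1 was chosen by its measured ratio between the strain and control libraries and by the difference between its strain ratios in the 2 media. The other 6 were listed with it by gene name as the ligand, receptor chains, inhibitors and adaptor of its family, and all 7 were found. The differences of Il1rl1 are therefore a description.

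MC3T3-E1 is a wild-type line derived from mouse skull bone. Confluent cells, grown in DMEM with fetal bovine serum, were left untreated (control), stretched at 2500 microstrain and 0.5 Hz for 1 h per day (strain), placed in medium taken from cultures of the human prostate cancer line PC-3 (conditioned medium), or given conditioned medium and strain together. Each group was 1 RNA-seq library, the 4 totals ran from 10007546 to 10997085 counts, and no difference given here has a replicate check. How many days the treatment lasted is not given in the sources used here, and no group with medium from other cells was analysed here, so an effect of PC-3 products and one of any conditioned medium cannot be told apart. The table heads its columns O, L, T and LT. O was taken as control, L as mechanical loading, LT as both treatments and T, by elimination, as conditioned medium; if L and T were exchanged, the statements on strain and conditioned medium would exchange with them, while those on both treatments against control would stand.

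IL-33 is a nuclear cytokine released by damaged stromal and epithelial cells. It binds the receptor ST2, the product of Il1rl1, which then recruits the shared co-receptor chain IL-1RAcP, the product of Il1rap. IL-1 alpha and IL-1 beta use the same co-receptor with their own receptor IL-1R1, and the cytoplasmic TIR domains of both receptor pairs recruit the adaptor MyD88, through which kinases of the IRAK family and TRAF6 lead to NF-kappaB and MAP kinases. The family is held in check by the receptor antagonist IL-1Ra (Il1rn), the inhibitory receptor SIGIRR and a soluble, secreted form of ST2 that traps IL-33. In bone, IL-1 is known as a signal that favours bone resorption.

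The Il1rl1 gene has more than one start site, and the letters of its promoters are shown because this gene had the widest range among the well-counted members. RefSeq promoter windows (GRCm38.p6, 250 bases before to 50 after a start site) were matched by symbol for 6 of the 7 genes, all but Sigirr, 11 windows in all. The upstream Il1rl1 window lies on the plus strand at chr1:40429320-40429619 and the downstream one at chr1:40439379-40439678, with 10059 bases between their start sites. Neither window covers the start of the counted Il1rl1 gene model, which lies further upstream, at 40404864. Capitals mark matches, on either strand, to AGATAA or TGATAA, forms of the motif bound by GATA factors, which are known to act on Il1rl1 in mast cells and basophils. The third window, on the plus strand at chr1:40266336-40266635, belongs to Il1r1. Its capitals mark a match to the kappaB motif of NF-kappaB, the only such match in the 11 windows.
Il1rl1 upstream window: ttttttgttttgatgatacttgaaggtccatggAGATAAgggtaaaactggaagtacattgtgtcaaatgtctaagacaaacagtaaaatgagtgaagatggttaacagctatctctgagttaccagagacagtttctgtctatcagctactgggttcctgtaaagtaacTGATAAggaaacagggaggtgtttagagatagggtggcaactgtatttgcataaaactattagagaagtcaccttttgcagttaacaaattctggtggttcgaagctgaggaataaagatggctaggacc
Il1rl1 downstream window: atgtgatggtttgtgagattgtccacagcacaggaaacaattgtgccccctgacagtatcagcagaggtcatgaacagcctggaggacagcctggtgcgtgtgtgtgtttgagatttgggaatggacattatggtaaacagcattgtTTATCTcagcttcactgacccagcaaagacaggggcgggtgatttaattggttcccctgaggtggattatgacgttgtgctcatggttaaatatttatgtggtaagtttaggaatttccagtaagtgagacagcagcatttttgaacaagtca
Il1r1 second window: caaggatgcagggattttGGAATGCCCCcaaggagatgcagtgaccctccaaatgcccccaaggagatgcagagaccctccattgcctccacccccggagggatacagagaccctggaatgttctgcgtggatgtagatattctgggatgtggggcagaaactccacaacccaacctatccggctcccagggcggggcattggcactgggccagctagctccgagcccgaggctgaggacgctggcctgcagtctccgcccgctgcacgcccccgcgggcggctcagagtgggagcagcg

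The upstream Il1rl1 window held AGATAA starting 217 bases and TGATAA starting 80 bases before the start site, and the downstream window held AGATAA, read on the opposite strand, from 103 bases before it. Of all 32851 promoter windows, 11.2% held AGATAA and 9.05% TGATAA. The kappaB match of Il1r1 began 232 bases before its start site, and 8.46% of all windows held one. The other Il1r1 window held no kappaB match, and neither did any Il1rl1 or Il33 window. TGANTCA, the AP-1 motif, was in 1 Il1rn window (7.81% of all windows) and TTCNNNGAA, the STAT motif, in the Myd88 window (8.3%); neither was in an Il1rl1, Il33 or Il1r1 window. A match describes the letters of a window and is not a binding site.

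Per length, the adaptor gene was the most abundant of the 7 and the ligand and inhibitors the least. Values are RPKM (reads per kilobase of the gene model, scaled to the library's total count), with the 95% Poisson interval of the count in brackets, which covers counting error only. In the control library Myd88 stood at 23.9 RPKM (21.8 to 26.1), Il1rl1 at 5.47 (4.97 to 6.0), Il1r1 at 5.10 (4.56 to 5.69) and Il1rap at 3.02 (2.72 to 3.34). Sigirr, Il1rn and Il33 lay at 0.751, 0.678 and 0.407 RPKM, with intervals that overlapped one another. Il1rl1 and Il1r1 could not be separated by level in the control, while in each treated library Il1rl1 stood above Il1r1 and below Myd88. RPKM uses one length per gene: the Il1rap model has 11121 bases where its longest GENCODE M21 transcript has 4520, and the Il1rl1 model 7451 where its longest has 5302, so the order between genes depends on those models.

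**Figure D1:**
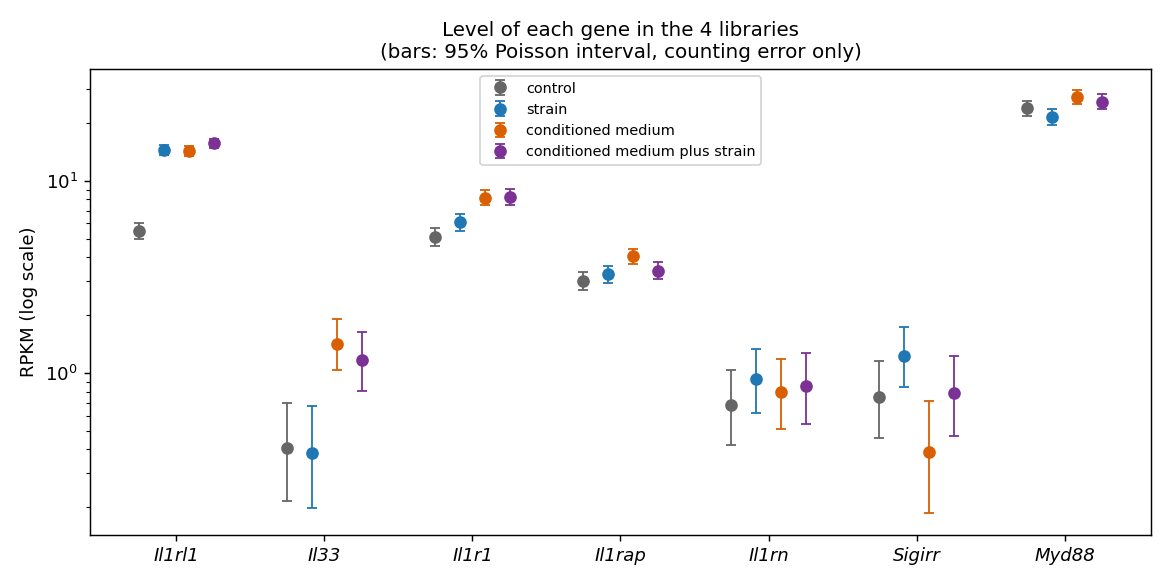
RPKM on a log axis for the 7 genes in the 4 libraries, 1 point per library, with 95% Poisson intervals of the counts as bars. The control point of Il1rl1 (5.47) sits apart from its 3 treated points (14.3 to 15.7), and Il33 divides into control and strain (0.407 and 0.385) and both conditioned-medium libraries (1.42 and 1.17).

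Il1rl1, which encodes ST2, lies on the plus strand of chromosome 1 at 40404864 to 40465418 in the table's positions, read as GRCm38. It had 448 counts in the control library, 1159 with strain, 1136 with conditioned medium and 1168 with both, or 5.47, 14.5, 14.3 and 15.7 RPKM. The control library was the low one, and the 3 treated libraries lay close together. Its share of counts was 2.65-fold higher with strain than in the control (2.38 to 2.97), 2.62-fold higher with conditioned medium (2.34 to 2.93) and 2.87-fold higher with both (2.57 to 3.20). These 3 ratios share the control library, so they are not independent of one another. Against the strain library the one with both treatments had a ratio of 1.08 (0.995 to 1.17), and against conditioned medium 1.10 (1.01 to 1.19).

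The ratio of Il1rl1 for strain in conditioned medium, 1.10, was 0.413 times that for strain in ordinary medium (0.360 to 0.473, an approximate interval from the 4 counts). Exchanging L and T changes the name of each single treatment and not this pattern, since both single-treatment libraries had nearly the same level. GENCODE M21 lists 5 protein-coding Il1rl1 transcripts: the longest, with 11 exons, and one with 10 exons end at 40465415 and 40465396, while a pair with 8 exons each ends earlier, at 40446723 and 40448148. The gene count pools them, so the membrane receptor and its soluble form cannot be told apart in these values. No other gene of the table overlaps Il1rl1, and the nearest gene downstream on the same strand, Il18r1, starts 133 bases beyond its end and had 0 to 2 counts.

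A gene was called higher or lower where its share ratio was at least 1.5 either way, its 95% Clopper-Pearson counting interval excluded 1 and the higher library had at least 30 counts. For strain against control, 1 of the 7 genes was called higher, Il1rl1, and none lower, where 1.48% of the 12025 genes with enough counts were called higher and 1.48% lower. Since Il1rl1 was chosen on that contrast, nothing is read from this call. For conditioned medium against control 3 were called higher, Il1rl1, Il33 and Il1r1, and none lower, against 3.36% higher and 3.64% lower of 12069 genes. For both treatments against strain only Il33 was called higher, against a background of 2.64% higher and 3.81% lower of 11940 genes. For both treatments against conditioned medium none of the 7 was called either way, against 0.579% higher and 0.848% lower of 11910 genes. For both treatments against control Il1rl1, Il33 and Il1r1 were called higher, against 3.0% higher and 4.12% lower of 12025 genes. Il1rn, with 21 to 28 counts, could not be called in any comparison. Sigirr reached 30 counts only in the strain library and Il33 only in both conditioned-medium libraries, where each was high. Il33 could therefore be called only through the libraries in which it was high. The other calls of Il1rl1 use the same control library on which it was chosen, so nothing is read from them either. For these reasons the number of members called is not weighed against the background shares.

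**Figure D2:**
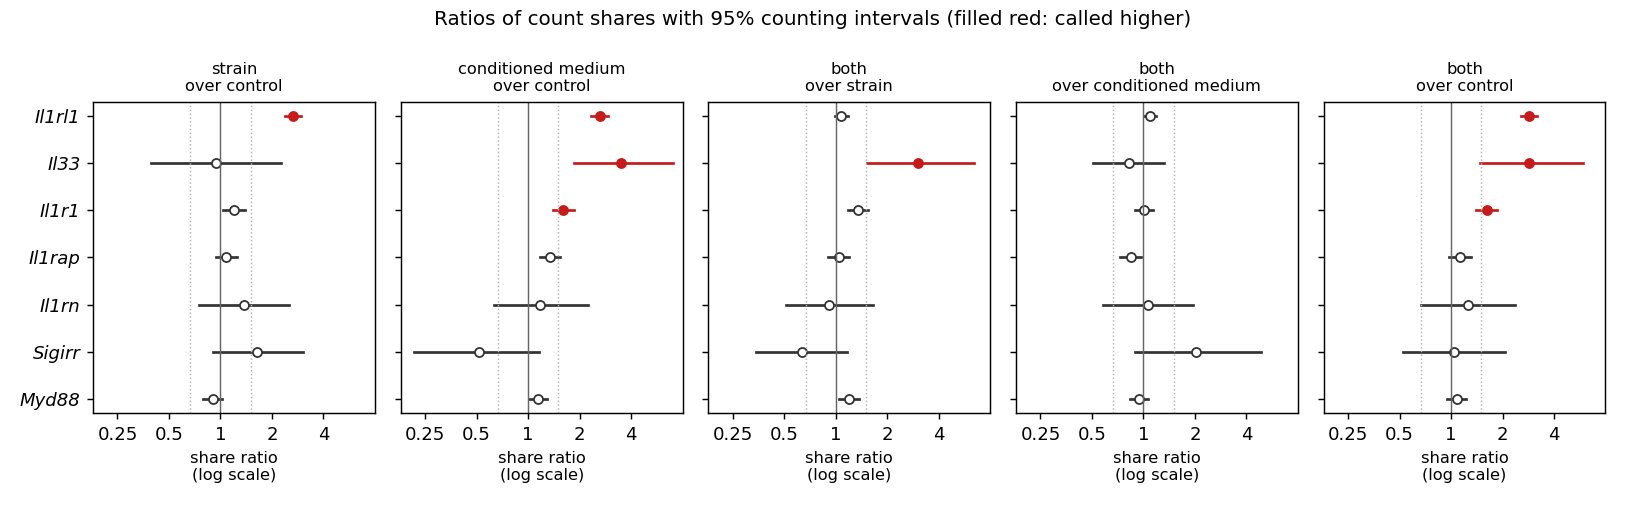
Share ratios of the 7 genes in the 5 comparisons on a log axis, with 95% counting intervals as lines, dotted lines at 1.5-fold either way and called genes as filled red points. Il1rl1 is filled in the 3 comparisons with the control library, at 2.62 to 2.87, and lies near 1 in the other two.

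Il33, the ligand of ST2, lies on chromosome 19 at 29925114 to 29960715, plus strand. It had 13 counts in the control library, 12 with strain, 44 with conditioned medium and 34 with both, or 0.407, 0.385, 1.42 and 1.17 RPKM. Both conditioned-medium libraries were high and both others low. The share ratio was 3.49 for conditioned medium against control (1.85 to 7.07) and 3.04 for both treatments against strain (1.53 to 6.44), a pair of comparisons without a library in common. For strain the ratio was 0.947 in ordinary medium (0.395 to 2.25) and 0.823 in conditioned medium (0.510 to 1.32), so at this depth no strain difference was detectable. An opposite-strand lncRNA gene, Gm41832, overlaps Il33 over 2220 bases and had 0 to 2 counts.

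Other ligands of the family were scarce. The fixed list of other ligands and the IL-18 binding protein held 13 symbols, of which 9 were in the table. The symbols not found, Il36a, Il36b, Il36g and Il36rn, are other names of Il1f6, Il1f8, Il1f9 and Il1f5, which were found. Of the 9 genes 5 had no count in any library. Il1b, which encodes IL-1 beta, was one of these 5, and with a gene model of 2647 bases an undetected level of up to 0.103 to 0.113 RPKM (3 counts) is possible. Il1a had 0 to 4 counts. Il18, an inflammasome-processed cytokine of the family, had 37 counts in the control library, 47 with strain, 32 with conditioned medium and 21 with both, and was called lower with both treatments than with strain at a ratio of 0.479 (0.272 to 0.817). Il18bp, which encodes a secreted protein that traps IL-18 and was the most abundant of the list by its mean RPKM over the 4 libraries, had 39, 40, 51 and 70 counts in that order of libraries. Il18 stood above it in the control and strain libraries, at 2.07 and 2.69 RPKM against 1.98 and 2.09. Il18bp was called higher with both treatments than with strain (1.88, 1.25 to 2.84) and than in the control (1.97, 1.32 to 3.0). Only these 2 genes of the list had at least 30 counts in some library, so no other could be called. Over all genes with enough counts, 2.64% were called higher and 3.81% lower for both against strain, and 3.0% higher for both against control. With 2 genes, these calls are not read as a result for the list.

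Il1r1, the signalling receptor for IL-1 alpha and IL-1 beta, lies on chromosome 1 at 40225014 to 40316201, plus strand. It had 325 counts in the control library, 379 with strain, 505 with conditioned medium and 478 with both, or 5.10, 6.10, 8.18 and 8.25 RPKM. Both conditioned-medium libraries lay above both others. The share ratio was 1.60 for conditioned medium against control (1.39 to 1.85) and 1.35 for both against strain (1.18 to 1.55), the second short of the 1.5-fold rule. For strain it was 1.20 in ordinary medium (1.03 to 1.39) and 1.01 in conditioned medium (0.888 to 1.15).

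Il1rap, the co-receptor chain used by both receptors, lies on chromosome 16 at 26581683 to 26730128, plus strand. It had 369, 390, 480 and 379 counts in the same order, or 3.02, 3.27, 4.05 and 3.41 RPKM. The conditioned-medium library was the highest, with an interval (3.695 to 4.428) that overlapped that of both treatments (3.071 to 3.766). The intervals of the control, strain and both-treatment libraries overlapped one another. Its ratio was 1.34 for conditioned medium against control (1.17 to 1.54) and 1.04 for both against strain (0.902 to 1.20), and it was called in none of the 5 comparisons. Gm20319, an lncRNA gene on the opposite strand, overlaps Il1rap over 15447 bases and had 32 to 47 counts, and the strand setting of the counting is not given in the sources used here.

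Set against the co-receptor within each library, a ratio that no library scaling can alter, the RPKM of Il1rl1 was 1.81 times that of Il1rap in the control (1.58 to 2.09). It was 4.44 times with strain (3.95 to 4.99), 3.53 times with conditioned medium (3.17 to 3.94) and 4.60 times with both (4.09 to 5.18). The ratio was thus lowest in the control. Il1rl1 was chosen on its strain and control libraries, and the 3 differences share that control, so this is a description only. Set against Il1r1, Il1rl1 stood at 1.07 in the control (0.927 to 1.24), 2.38 with strain (2.12 to 2.68), 1.75 with conditioned medium (1.57 to 1.95) and 1.90 with both (1.71 to 2.12). Here the strain library was the highest: Il1r1 was higher in both conditioned-medium libraries, while Il1rl1 was at a similar level in all 3 treated ones.

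Il1r1 and Il1rl1 belong to a cluster of 6 receptor genes, all on the plus strand, over 468 kb of chromosome 1 from Il1r2 to Il18rap. Il1rapl1 and Il1rapl2, the family's receptors on the X chromosome, had 0 to 2 counts. Il1r2, which encodes a decoy receptor for IL-1, had 1 to 4 counts and Il18r1, the IL-18 binding chain, 0 to 2. Il1rl2, the IL-36 receptor between Il1r1 and Il1rl1, had 79 counts in the control library, 88 with strain, 113 with conditioned medium and 68 with both, and was called in 1 comparison, lower with both treatments than with conditioned medium at 0.641 (0.467 to 0.874). Il18rap, the IL-18 co-receptor chain at the far end, had 86, 114, 182 and 193 counts, or 1.56, 2.13, 3.42 and 3.86 RPKM. It was called higher with conditioned medium than in the control (2.18, 1.68 to 2.86), with both than with strain (1.81, 1.43 to 2.31) and with both than in the control (2.47, 1.90 to 3.22). For strain against control its ratio was 1.36 (1.02 to 1.82), beside 2.65 for Il1rl1. Over all genes with enough counts, 3.36%, 2.64% and 3.0% were called higher in the comparisons that called Il18rap, in the order given. In the comparison that called Il1rl2, 0.848% were called lower. Only these 2 genes among the other receptors had enough counts, so the calls are not read as a result for that list. Il1r2 and Il18r1 had too few counts for a profile over the 4 libraries. The other genes of the cluster did not share one profile. Il1rl1, chosen on its own values, was similar in all treated libraries. Il1r1 and Il18rap were highest in both conditioned-medium libraries. Il1rl2 was highest with conditioned medium alone, on few counts. Its ratio for conditioned medium against control was 1.48 (1.10 to 1.99), beside 1.60 for Il1r1.

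**Figure D3:**
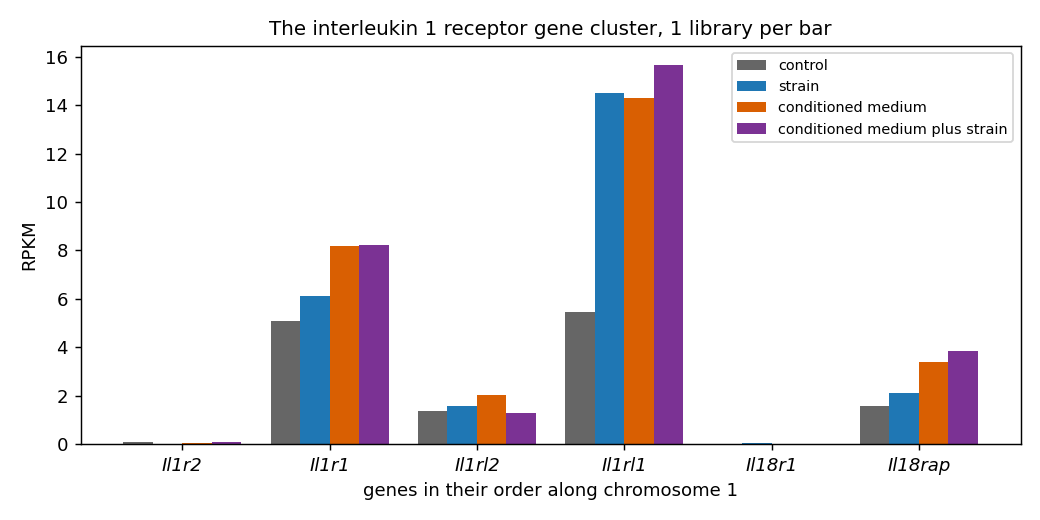
RPKM of the 6 receptor genes in their order along chromosome 1, 1 bar per library, with bars starting at 0. Il1rl1 has a low control bar (5.47) and 3 treated bars of 14.3 to 15.7, Il18rap goes from 1.56 in the control to 3.86 with both treatments, and Il1r2 and Il18r1 are near 0.

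Both inhibitor genes were detected in every library, at low counts that leave wide intervals. Il1rn, which encodes the antagonist that occupies IL-1R1 without signalling, lies on chromosome 2 at 24336860 to 24351491, plus strand, and had 21 counts in the control library, 28 with strain, 24 with conditioned medium and 24 with both, or 0.678 to 0.927 RPKM. The 4 values lay close together. Its interval included 1 in every comparison. Sigirr, the inhibitory receptor with a TIR domain, lies on chromosome 7 at 141091175 to 141100605, minus strand, and had 20, 32, 10 and 19 counts, or 0.751, 1.23, 0.387 and 0.784 RPKM. Its strain library was the highest and its conditioned-medium library the lowest. The ratio was 1.64 for strain against control (0.910 to 3.03), 0.516 for conditioned medium against control (0.216 to 1.16) and 2.02 for both against conditioned medium (0.895 to 4.87), so that differences of this size were not detectable at this depth.

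Myd88, the adaptor gene, lies on chromosome 9 at 119335988 to 119340040, minus strand. It had 500, 439, 556 and 491 counts in the same order, or 23.9, 21.5, 27.4 and 25.8 RPKM. Its libraries spanned a narrow range, with the strain library lowest and the conditioned-medium library highest. The largest ratio was 1.20, for both treatments against strain (1.05 to 1.37), and it was called in no comparison.

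Genes that act after MyD88 were well counted and mostly level. Of 18 fixed genes 17 had at least 30 counts. In the 5 comparisons 0.579% to 3.36% of all genes with enough counts were called higher and 0.848% to 4.12% lower. Few calls among 17 genes are near those shares. None of the 17 was called higher. Peli2, which encodes a Pellino ubiquitin ligase acting on IRAK kinases, was the only one called: it had 252, 233, 156 and 141 counts, with ratios of 0.639 for conditioned medium against control (0.520 to 0.783), 0.648 for both against strain (0.522 to 0.803) and 0.615 for both against control (0.497 to 0.759). The median log2 share ratio of the 17 was -0.05 for strain against control and -0.02 for conditioned medium against control, where all genes with enough counts had medians of -0.03 and -0.04. The receptor-proximal kinase gene Irak1 lay between 16.7 and 17.4 RPKM, Traf6 between 7.09 and 8.13, and Sqstm1, a scaffold for TRAF6 and the most abundant of the list, between 265 and 298. Irak3, a kinase-like inhibitor of the pathway known from myeloid cells, had 0 to 2 counts.

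Of the 4 other TIR adaptor genes 3 had at least 30 counts, and none was called; Ticam1, the most abundant, lay between 14.6 and 16.4 RPKM. Toll-like receptors, which use the same adaptor, were represented by 5 of 12 genes with at least 30 counts, and none was called in any comparison. Over all genes with enough counts 0.579% to 3.36% were called higher and 0.848% to 4.12% lower per comparison. The lack of calls among so few genes is near those shares. The Toll-like receptor values were lower with strain than in the control in all 5, with a median log2 ratio of -0.35 against -0.03 for all genes with enough counts. The intervals of Tlr1 (0.570 to 1.07) and Tlr5 (0.692 to 1.14) included 1, and those of Tlr2, Tlr3 and Tlr4 did not. All 5 ratios share the same strain and control libraries, so their common direction is not independent evidence from 5 genes. Tlr2 was the most abundant, at 17.9 RPKM in the control, 13.8 with strain, 15.9 with conditioned medium and 15.1 with both. Tlr4, the endotoxin receptor, had 6.20, 5.15, 7.12 and 7.52 RPKM.

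Genes that process or release ligands of the family included 6 of 12 with at least 30 counts. Casp4, an inflammatory caspase that senses intracellular endotoxin, was the only one called, with 14.2 RPKM in the control library, 12.2 with strain, 25.3 with conditioned medium and 24.8 with both. It was higher with conditioned medium than in the control by 1.78-fold (1.51 to 2.11) and with both than with strain by 2.03-fold (1.70 to 2.43). Over all genes with enough counts 3.36% were called higher in the first of these comparisons and 2.64% in the second. With 6 genes, 1 called gene is not read as a result for the list. Casp1, which cleaves pro-IL-1 beta and pro-IL-18, had 1 to 4 counts, and Nlrp3, the sensor of its main inflammasome, 1 to 4. Capn2, a calpain subunit and the most abundant gene of the list, lay between 93.0 and 98.7 RPKM.

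Genes known to be induced by IL-1 in mesenchymal cells were listed with the earlier results of these libraries in view, so their count is not independent of them. Of 24 listed genes 18 had at least 30 counts in some library. For strain against control none of the 16 with enough counts in that pair was called, with a median log2 ratio of 0.03. For conditioned medium against control 10 of 18 were called higher and none lower, with a median of 0.65, where 3.36% of all genes with enough counts were called higher and 3.64% lower. For both against strain 10 of 18 were called higher and none lower, with a median of 0.79, against 2.64% and 3.81% of all genes; the medians of all genes were -0.04 in each comparison. For both against control 9 of 18 were called higher and none lower, against 3.0% and 4.12%, a comparison that shares its control library with the first. For both against conditioned medium 1 was called, Ptgs2, the inducible cyclooxygenase gene, which was lower (0.619, 0.579 to 0.662), against 0.579% higher and 0.848% lower of all genes. Mmp13, Lcn2, Saa3, Mmp3, Nos2 and Il6 had the largest ratios, from 16.7 for Mmp13 (14.2 to 19.7) to 4.70 for Il6 (3.45 to 6.52) for conditioned medium against control. Some genes of the list had lower values with conditioned medium than in the control or hardly any counts, and those named next were chosen after their values were seen. Nfkbia and Tnfaip3, feedback inhibitors of NF-kappaB, had ratios of 0.943 (0.848 to 1.05) and 0.912 (0.827 to 1.01) for conditioned medium against control, and Lif, a cytokine gene, 0.907 (0.759 to 1.08). Icam1, an adhesion molecule gene, had 14 counts in the control library, 6 with strain, 5 with conditioned medium and 1 with both, and the chemokine and growth factor genes Cxcl1, Cxcl2, Ccl20 and Csf2 had 0 to 2. C3, the complement gene and the most abundant of the list, had 133 RPKM in the control library, 109 with strain, 205 with conditioned medium and 199 with both, and was called higher with conditioned medium than in the control (1.54, 1.496 to 1.59). Il1rl1, which was chosen on its strain and control values, had 14.5 RPKM with strain and 14.3 with conditioned medium. Il6, from a list made with earlier results in view, had 4.82 and 18.7 RPKM in these libraries. Nothing is read from setting these values side by side.

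**Figure D4:**
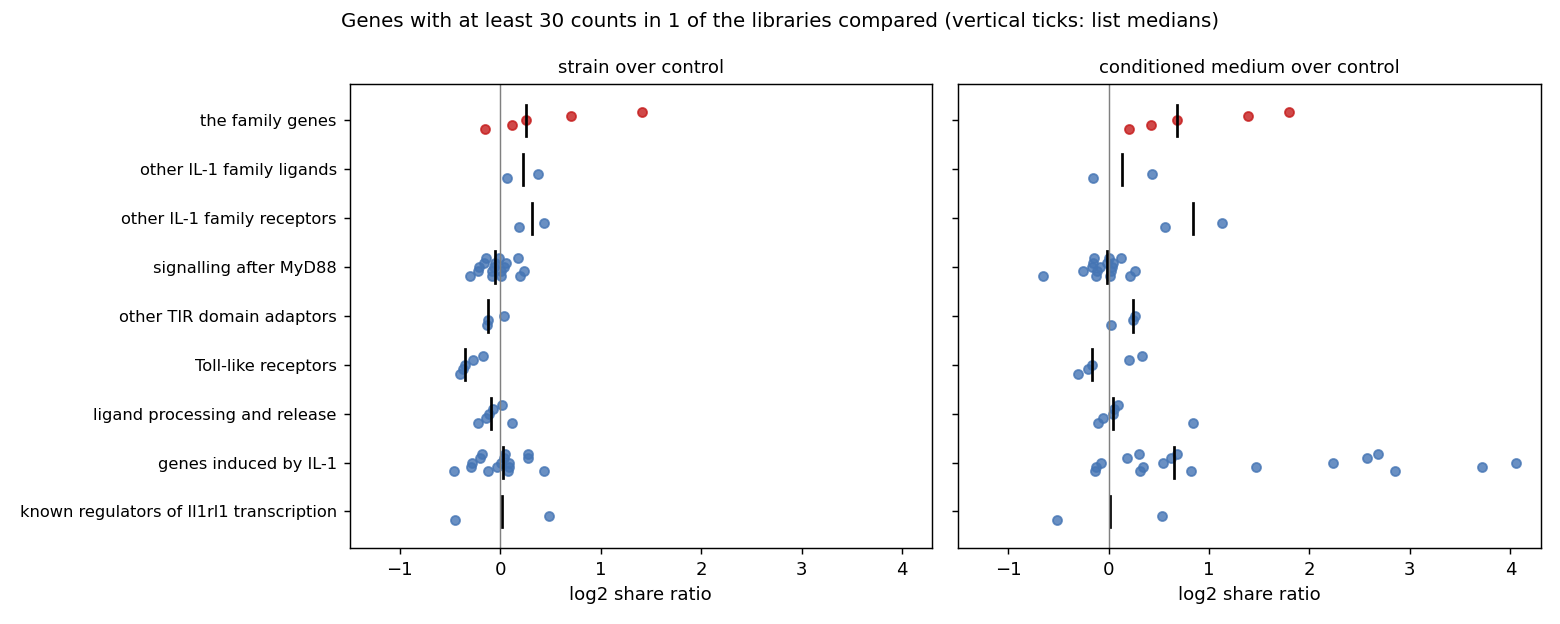
Log2 share ratios for strain against control (left) and conditioned medium against control (right), 1 point per gene with at least 30 counts in either library compared, grouped by list, with list medians as vertical ticks. Genes acting after MyD88 have medians of -0.05 and -0.02, and the IL-1-induced genes have medians of 0.03 on the left and 0.65 on the right. The IL-1-induced genes were listed with earlier results of these libraries in view, so their medians are a description.

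Over the 4 libraries, the genes most like Il1rl1 were found by the Euclidean distance between profiles of log2(RPKM + 1), each centred on its own mean, among 10236 other genes with at least 100 counts in their highest library. The nearest was Spp1, which encodes the bone matrix protein osteopontin, at a distance of 0.430, followed by Snai1 (a transcriptional repressor) at 0.437, Hmga1 (a chromatin protein) at 0.462, Bdkrb2 (the bradykinin B2 receptor) at 0.489 and Txnip (a thioredoxin-binding protein) at 0.527. The median distance over all those genes was 1.17. Among the family the closest was Il1r1, at 0.765. All 5 had their lowest value in the control library. Snai1 had 20.7 RPKM there, 34.2 with strain, 48.0 with conditioned medium and 48.0 with both, and Txnip 106, 182, 162 and 174. Hmga1 has near-identical copies in the genome, so its count is uncertain. With 4 libraries many genes can have such a profile, and all share the control value.

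Factors known to act on Il1rl1 in blood cells were low. Gata2 had 1.96 RPKM in the control library, 2.74 with strain, 2.83 with conditioned medium and 2.47 with both, and was called in no comparison. Gata3 had 2.10, 1.54, 1.47 and 2.28 RPKM and was called higher with both treatments than with conditioned medium (1.55, 1.09 to 2.23). Over all genes with enough counts 0.579% were called higher in that comparison. With only 2 genes of this list having enough counts, the call is not read as a result for the list. Gata1 had no count in any library and Spi1, which encodes PU.1, had 3 counts in the control and 0 elsewhere.

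ST2 is best known from mast cells and lymphoid cells, so markers of other cell types were read in the same libraries. All 7 mast cell markers, among them Kit, Cpa3 and Fcer1a, had 0 counts in every library. Of 6 leukocyte and macrophage markers, Ptprc (CD45) had 0 counts, Csf1r, Adgre1, Itgam and Cd68 had 0 to 11, and Lyz2 alone exceeded 30 counts, so the summed level of 24.8 to 31.6 RPKM came mostly from Lyz2 and was highest in the control. Of 5 T cell and innate lymphoid markers Cd3e and Il7r had 0 counts, Thy1 1 to 4, Cd3g 30 to 45 and Rora 333 to 440, with a summed level of 4.99 to 5.76 RPKM. The 4 endothelial markers summed to 0.412 to 0.658 RPKM. The osteoblast lineage list was led by Postn, Spp1 and Col1a2, and 7 of its 9 genes had at least 30 counts; Bglap and Ibsp, late osteoblast markers, had 1 to 12, and Alpl, an earlier one, had 25 to 32. For strain against control 1 of the 7 was called, Spp1, which was higher (1.91, 1.88 to 1.94). Over all genes with enough counts 1.48% were called higher and 1.48% lower in that comparison. For conditioned medium against control Spp1 was called higher and Postn, a matrix protein gene, and Sp7, which encodes the osteoblast transcription factor osterix, lower. The shares over all genes with enough counts were 3.36% higher and 3.64% lower. Sp7 had 120 counts in the control library, 112 with strain, 76 with conditioned medium and 59 with both, with a ratio of 0.653 for conditioned medium against control (0.484 to 0.878) and 0.564 for both against strain (0.405 to 0.780). Postn had ratios of 0.443 (0.439 to 0.446) and 0.585 (0.580 to 0.590) in these comparisons. These lineage genes thus differed between the same libraries as Il33 and Il1r1, and their part in those differences was not tested. In a culture measured in bulk, fewer cells with a transcript and less transcript per cell cannot be told apart.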

How the data were processed

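RNA of 1 MC3T3-E1 sample per group was extracted with Trizol and made into directional libraries, per the labels' protocols. The authors deposited, per the file headers, whole-number read counts and RPKM values for each gene and library in a single table. HISAT2 is the aligner named, and mm9 the build, per the submitters' processing notes; yet 71.8% of the 40033 genes matched by Entrez number share chromosome and start with RefSeq GRCm38.p6, so positions are read as GRCm38. Of the 7 family genes, 3 had the same start in RefSeq as in the deposited table. No source used here gives the counting tool or its strand setting. The deposited RPKM equalled count over length and column total to a relative 5.05e-06.

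Share ratios were computed from the counts in Python 3.11.15 with scipy 1.17.1, each with an exact Clopper-Pearson interval, which covers counting error only and treats reads as independent molecules. The code for intervals and calls was tested on simulated data with counting error only, which says nothing of differences between cultures. With 1 library per group no test between groups and no p-value was computed; an additive model over the 4 libraries was not run. Alternatives were TMM scaling (edgeR 4.0.16), median-of-ratios size factors, a total without the 20 most abundant genes, pseudocounts of 1 and 0.1, and other minimums and folds. Members, gene lists and thresholds were chosen with earlier results of these data known. From each pathway list the text names the genes called in at least 1 comparison (up to 6, by size of ratio) and the one with the highest mean RPKM; genes named beyond that were chosen after their values were seen.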

Additional observations from a re-analysis of the deposited data

Results flagged for a closer look

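Il1rap had strain ratios on opposite sides of 1 in the 2 media, the first with an interval that includes 1: its share ratio was 1.08 for strain against control (0.938 to 1.25) and 0.841 for both treatments against conditioned medium (0.733 to 0.964). The second ratio was 0.776 times the first (0.638 to 0.944, counting error only). Il1rn likewise had a ratio of 1.18 for conditioned medium against control (0.629 to 2.23) and 0.918 for both treatments against strain (0.510 to 1.64), on 21 to 28 counts. Neither difference was tested, since each value is 1 library against 1 library, and none of these 4 ratios met the call rule.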

How the results depend on the processing

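Of 182 recomputed share ratios and ratios of ratios of the 7 genes under the alternative scalings and pseudocounts, 181 stayed within the main counting interval and none of the called ones changed direction. Other scalings shifted all ratios of a comparison by 5.22% at most. The ratio of Il1rl1 ranged over these alternatives from 2.40 to 2.74 for strain against control, from 2.37 to 2.70 for conditioned medium against control and from 2.58 to 3.01 for both treatments against control. The low genes moved most with a pseudocount of 1, which is near their RPKM. The ratio of Il33 was then 1.72 in place of 3.49 for conditioned medium against control, the value outside its interval, 1.57 in place of 3.04 for both against strain and 1.54 in place of 2.87 for both against control. That of Sigirr was 0.792 in place of 0.516 for conditioned medium against control and 1.29 in place of 2.02 for both against conditioned medium.

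The number of family genes called changed by more than 1.5 times in 3 of 40 recounts. With the fold alone, whatever the interval, 2 genes in place of 1 passed for strain against control and 2 in place of 1 for both treatments against strain, Sigirr being the gene added each time. With a minimum of 100 counts, 0 in place of 1 passed for both treatments against strain, since Il33 had too few. With that minimum Il33 was also no longer called, and with a fold of at least 2 Il1r1 was not, for conditioned medium against control and for both treatments against control, which left 2 genes called in place of 3 in each case. Depth limits Il33, Il1rn and Sigirr, which had 10 to 44 counts; no alternative here bears on differences between cultures, for which there are no replicates.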
